A study of Mus musculus with 29 samples.

Results

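The genes described here are 51 cell cycle genes, taken by symbol from the 25239 genes in the count tables of 8 RNA-seq libraries of mouse embryonic brain. They fall by phase into 15 genes of G1 and the G1/S transition (D- and E-type cyclins, their kinases, Cdk inhibitors and E2F factors), 13 genes of S phase and 23 genes of G2 and mitosis. All 51 were found in the tables, and all 51 passed the filter on low counts that left 15383 genes for testing. Their counts in single libraries ran from 93 to 16917.

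The study mapped the contacts of developmental enhancers in embryonic tissues and deleted enhancers in mice, and the RNA-seq libraries compare knockout with wild-type embryos. All embryos were at stage E11.5, and poly(A) RNA was sequenced from 4 groups of 2 pools. These were wild-type midbrain, midbrain of the hs654 knockout, wild-type forebrain, and forebrain of the hs267-853 knockout, where the hs numbers name enhancers. Each pool combined tissue of several embryos of the same genotype, and nothing in the labels says that the pools of a group came from separate litters, so p-values measure only the spread between these pools, which may be in part technical. The labels give no strain, no zygosity of the deletions and no target gene of the enhancers, so the knockout labels could not be checked through a target. Total counts in genes ran from 9051632 to 18024406 per library, and the 51 genes held 1.01% to 1.21% of them. Tissue labels could be checked. All 8 listed midbrain regional genes were lower in wild-type forebrain than in wild-type midbrain, with En2 at 0 counts in all 4 forebrain libraries.

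Cells enter the cycle when D-type cyclins with Cdk4 or Cdk6, and then E-type cyclins with Cdk2, phosphorylate the retinoblastoma protein and release E2F factors, which switch on genes of DNA replication. Cyclin A and B with Cdk1 then drive G2 and mitosis, whose genes are switched on late in the cycle by B-Myb and FoxM1 and are repressed at other times through the CHR element by the DREAM complex. At this stage of brain development, dividing neuroepithelial progenitors line the ventricles and neurons that have left the cycle collect on the outer side, and Cdk inhibitors are known to take part in that exit.

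The promoter windows below show the G1, S and G2/M genes with the smallest p-values between wild-type forebrain and midbrain among those with a RefSeq window, plus Cdk1 and Ccnb2. These last were added after the matches had been seen, to show the motifs. The printed bases of Cdk1 hold CCAAT and CHR elements, and those of Ccnb2 hold CCAAT boxes only. Each is the 160 bases before an annotated start, 5′ to 3′ in the direction of the gene, from RefSeq (GRCm38.p6, the same assembly as mm10). Capitals mark matches on either strand to the E2F motif (TTTCCCGC, TTTCGCGC, TTTGCCGC or TTTGGCGC), the CCAAT box (CCAAT) and the CHR (TTTGAA or TTCGAA).
Ccnd3 start 1, chr17:47504891-47505050, plus strand: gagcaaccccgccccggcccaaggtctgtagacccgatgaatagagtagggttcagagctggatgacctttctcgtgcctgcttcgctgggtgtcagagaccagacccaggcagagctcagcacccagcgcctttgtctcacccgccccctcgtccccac
Ccnd3 start 2, chr17:47593307-47593466, plus strand: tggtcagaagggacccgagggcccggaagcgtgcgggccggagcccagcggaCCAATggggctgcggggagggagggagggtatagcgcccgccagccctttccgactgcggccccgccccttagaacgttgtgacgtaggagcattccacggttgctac
Ccne1, chr7:38107491-38107650, minus strand: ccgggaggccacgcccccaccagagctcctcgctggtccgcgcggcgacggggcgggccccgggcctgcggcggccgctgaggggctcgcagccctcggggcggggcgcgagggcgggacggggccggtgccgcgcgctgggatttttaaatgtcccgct
Mcm3, chr1:20820313-20820472, minus strand: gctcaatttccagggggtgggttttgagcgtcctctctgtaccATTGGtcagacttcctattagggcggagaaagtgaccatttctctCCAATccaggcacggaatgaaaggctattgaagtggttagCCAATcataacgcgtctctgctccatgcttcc
Mcm5, chr8:75109349-75109508, plus strand: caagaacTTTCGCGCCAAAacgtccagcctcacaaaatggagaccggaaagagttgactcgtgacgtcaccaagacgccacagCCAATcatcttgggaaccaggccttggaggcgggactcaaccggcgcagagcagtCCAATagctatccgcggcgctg
Plk1, chr7:122159275-122159434, plus strand: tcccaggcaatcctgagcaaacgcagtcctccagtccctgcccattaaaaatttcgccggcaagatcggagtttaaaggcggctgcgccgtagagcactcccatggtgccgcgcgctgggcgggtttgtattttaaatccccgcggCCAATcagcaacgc
Mybl2, chr2:163054475-163054634, plus strand: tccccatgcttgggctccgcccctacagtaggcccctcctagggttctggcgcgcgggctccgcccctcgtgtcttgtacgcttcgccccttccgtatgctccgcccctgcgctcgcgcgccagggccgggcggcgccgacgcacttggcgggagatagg
Cdk1, chr10:69352913-69353072, minus strand: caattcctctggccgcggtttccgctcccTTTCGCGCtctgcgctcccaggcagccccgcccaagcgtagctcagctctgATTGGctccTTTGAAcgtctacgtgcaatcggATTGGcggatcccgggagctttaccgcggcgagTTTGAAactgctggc
Ccnb2, chr9:70421555-70421714, minus strand: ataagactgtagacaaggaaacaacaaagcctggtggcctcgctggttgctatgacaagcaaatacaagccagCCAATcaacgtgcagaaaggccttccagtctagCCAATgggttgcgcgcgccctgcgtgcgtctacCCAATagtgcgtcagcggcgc

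Mcm5, a subunit of the MCM helicase that unwinds DNA at replication origins, holds overlapping E2F matches on opposite strands that begin at -153 and -149 from the start, and CCAAT boxes at -77 and -22. Mcm3, another MCM subunit, holds 3 CCAAT boxes, at -117, -72 and -32. Cdk1, the mitotic kinase, holds an E2F match at -131, CCAAT boxes at -80 and -48 and CHR matches at -71 and -15. Ccnb2, a mitotic cyclin, holds CCAAT boxes at -87, -54 and -21, and its CHR match nearest the start begins at 4 after it, outside the printed bases, as does that of the mitotic kinase Plk1, at 30. None of the motif letters occurs in the printed windows of Ccne1 and Mybl2 or in that of the first Ccnd3 start.

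RefSeq windows from 250 bases before to 50 after a start were at hand for 42 of the 51 genes. The motifs were chosen from textbook knowledge after expression values had been seen, and a match is a match of letters. E2F letters occurred in 6 of 11 S phase genes (54.5%: Cdc6, Cdt1, Mcm3, Mcm5, Mcm6 and Mcm7), in 3 of 12 G1 genes (25.0%: Cdk2, E2f2 and E2f7) and in 1 of 19 G2/M genes (5.26%: Cdk1). The share over the 11904 tested genes with a window was 4.55%, and it was 2.6% over all 27025 genes in the RefSeq table. CHR letters occurred in 14 of 19 G2/M genes (73.7%), against 16.1% of tested genes, 18.2% of S phase genes and 8.33% of G1 genes. Every 1 of those 14 G2/M genes also held a CCAAT box, a pair of motifs found in 8.05% of tested genes. CCAAT boxes alone were common in all groups, at 58.3% in G1, 72.7% in S phase and 84.2% in G2/M, against 42.7% of tested genes. In longer lists of further cell cycle genes, E2F letters occurred in 28.6% of G1, 34.1% of S phase and 8.93% of G2/M genes, and CHR letters in 38.1% of G1, 22.0% of S phase and 67.9% of G2/M genes.

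Most cell cycle genes were higher in forebrain than in midbrain, and the genes called lower were all in G1. In the wild type, 37 of 51 genes (72.5%) were higher in forebrain, 3 (5.88%) were lower and 11 did not pass the test, by the quasi-likelihood F-test of edgeR at a Benjamini-Hochberg adjusted p of 0.05 over all tested genes. Over all 15383 tested genes, 14.3% were called higher and 15.3% lower. The median difference over the 51 genes was 0.30 on the log2 scale, against 0.0012 over all tested genes. The differences were small in size, and the called rises ran from 1.14-fold to 1.84-fold. Levels below are in CPM, counts divided by a library size scaled with TMM factors. They are not corrected for transcript length and so are compared between libraries, not between genes.

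**Figure D1:**
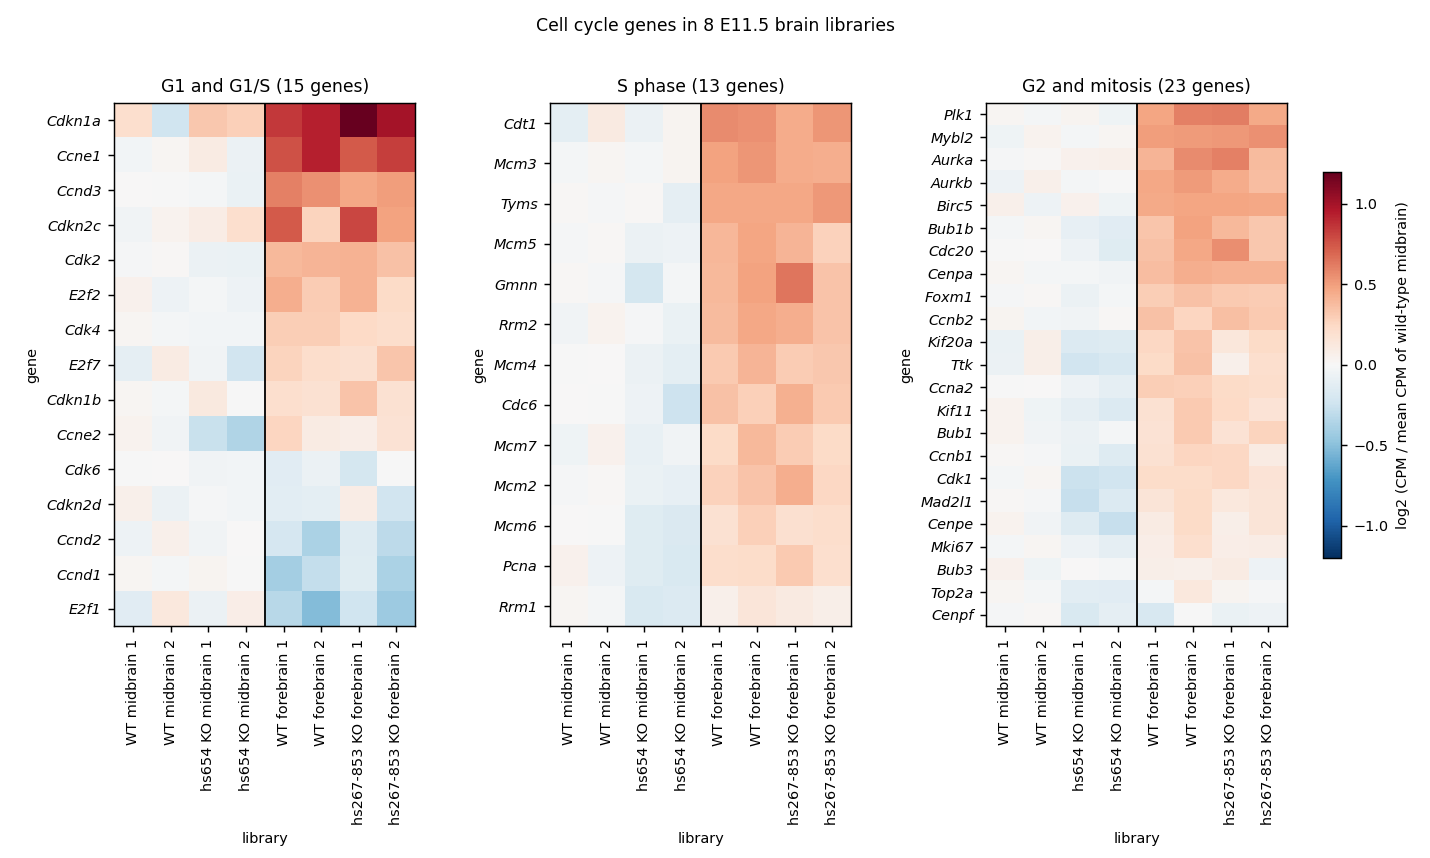
Levels of the 51 genes in each of the 8 libraries (columns), as log2 of the CPM over the mean CPM of both wild-type midbrain libraries, by phase group (panels) and sorted by the wild-type difference between regions, with a black line between midbrain and forebrain. All 13 S phase genes are higher in both wild-type forebrain libraries than in both wild-type midbrain libraries. In G1, Ccnd1, Ccnd2 and E2f1 are lower in both, as are Cdk6 and Cdkn2d, which did not pass the test.

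The D-type cyclins, which pair with Cdk4 and Cdk6 in G1, did not move together. Ccnd1 (chr7:144929931-144939831) was at 646 and 627 CPM in the wild-type midbrain pools and 652 and 635 CPM in the hs654 knockout midbrain pools, against 479 and 522 CPM in wild-type forebrain and 574 and 490 CPM in hs267-853 knockout forebrain. All 4 midbrain pools were above all 4 forebrain pools. The log2 difference between wild-type forebrain and midbrain was -0.35 ± 0.07 (SE, edgeR adjusted p = 0.0028). Ccnd2 (chr6:127125162-127152188) was at 1007 and 1096 CPM in wild-type midbrain, 1023 and 1054 in knockout midbrain, 915 and 810 in wild-type forebrain and 944 and 848 in knockout forebrain, again with no overlap of regions. Its difference in the wild type was -0.28 ± 0.07 (SE, edgeR adjusted p = 0.009).

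Ccnd3 (chr17:47505051-47599689), the third D-type cyclin, went the other way. It was at 128 and 127 CPM in wild-type midbrain, 125 and 121 in knockout midbrain, 193 and 186 in wild-type forebrain and 175 and 181 in knockout forebrain. The wild-type rise was 1.49-fold, or 0.57 ± 0.06 on the log2 scale (SE, edgeR adjusted p = 8.9e-06), the smallest adjusted p of the 51 genes. Each D-type cyclin overlaps another annotated gene and Ccnd3 has an annotated pseudogene, so reads may be shared, since the strand setting of the counting is not given in the sources used here. The same limit holds for other genes of the set, as 18 of the 51 overlap another annotated gene and 5 have an annotated pseudogene.

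Ccne1, an E-type cyclin that activates Cdk2 at the start of S phase, rose the most among the cyclins. It was at 25.1 and 26.1 CPM in wild-type midbrain, 27.4 and 24.5 in knockout midbrain, 43.6 and 48.7 in wild-type forebrain and 42.6 and 45.6 in knockout forebrain. The 2 regions were far apart relative to their pools, at 1.80-fold in the wild type (0.85 ± 0.10, SE, edgeR adjusted p = 4.5e-05). Its kinase partner Cdk2 rose 1.32-fold, from 74.7 and 76.4 CPM in wild-type midbrain to 98.8 and 100.1 CPM in wild-type forebrain (edgeR adjusted p = 0.00055). Ccne2, the paralog of Ccne1, did not pass the test in the wild type, with 57.3 and 54.1 CPM in midbrain and 66.6 and 59.8 CPM in forebrain (0.18 ± 0.09, SE, edgeR adjusted p = 0.13). Cdk4 rose 1.23-fold, from 662 and 642 to 801 and 800 CPM, while Cdk6 was at 33.5 and 33.9 CPM in midbrain and 30.7 and 32.1 CPM in forebrain and did not pass the test (edgeR adjusted p = 0.50).

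Of the 4 Cdk inhibitors in the set, Cdkn1a and Cdkn2c passed the test and Cdkn1b and Cdkn2d did not. Cdkn1a (p21, a target of p53) was low in every library, at 10.1 and 7.42 CPM in wild-type midbrain, 11.01 and 10.7 in knockout midbrain, 15.8 and 16.7 in wild-type forebrain and 20.0 and 17.5 in knockout forebrain. The wild-type rise of 1.84-fold was the largest of the 51 genes (0.88 ± 0.17, SE, edgeR adjusted p = 0.0015). Cdkn2c (p18-Ink4c) was at 12.5 and 13.3 CPM in wild-type midbrain and 21.5 and 15.5 CPM in wild-type forebrain (0.53 ± 0.17, SE, edgeR adjusted p = 0.033), and its call rests on single pools: without the first wild-type forebrain pool the difference was 0.27 with an adjusted p of 0.34, without either wild-type midbrain pool the adjusted p was 0.16 and 0.083, without the second knockout midbrain pool it was 0.052, and DESeq2 gave 0.055. Cdkn1b (p27), which was at 103 and 99.9 CPM in wild-type midbrain and 117 and 115 CPM in wild-type forebrain, missed the threshold (0.19 ± 0.07, SE, edgeR adjusted p = 0.060). It passed when only the 4 wild-type libraries were fitted (adjusted p = 0.040), with no filter on low counts (0.040), with the replicate block (0.046) and without either hs267-853 knockout pool (0.027 and 0.026). Cdkn2d (p19-Ink4d) was at 29.7 and 27.1 CPM in midbrain and 25.9 and 26.1 CPM in forebrain of the wild type, with an adjusted p of 0.48 by edgeR.

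The E2F factors differed in direction as well. E2f1, an activator of S phase genes, fell from 71.9 and 86.1 CPM in wild-type midbrain to 62.8 and 55.2 CPM in wild-type forebrain, and was at 75.2 and 83.6 CPM in knockout midbrain and 66.9 and 58.4 CPM in knockout forebrain. No forebrain pool reached the lowest midbrain pool, and the wild-type difference was -0.42 ± 0.11 (SE, edgeR adjusted p = 0.0095). E2f2, another activator, rose from 36.9 and 34.1 to 48.0 and 43.9 CPM (0.37 ± 0.10, SE, edgeR adjusted p = 0.013). E2f7, an atypical E2F that represses, did not pass the test (0.24 ± 0.09, SE, edgeR adjusted p = 0.068). The calls for Ccnd2 and E2f1 were lost when the second wild-type midbrain pool was left out (adjusted p = 0.076 and 0.11) or the second wild-type forebrain pool (adjusted p = 0.12 and 0.10), and Ccnd1 kept its call in the wild type without any 1 pool. That of E2f2 was lost without the second midbrain pool (adjusted p = 0.088) or the first forebrain pool (adjusted p = 0.11).

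**Figure D2:**
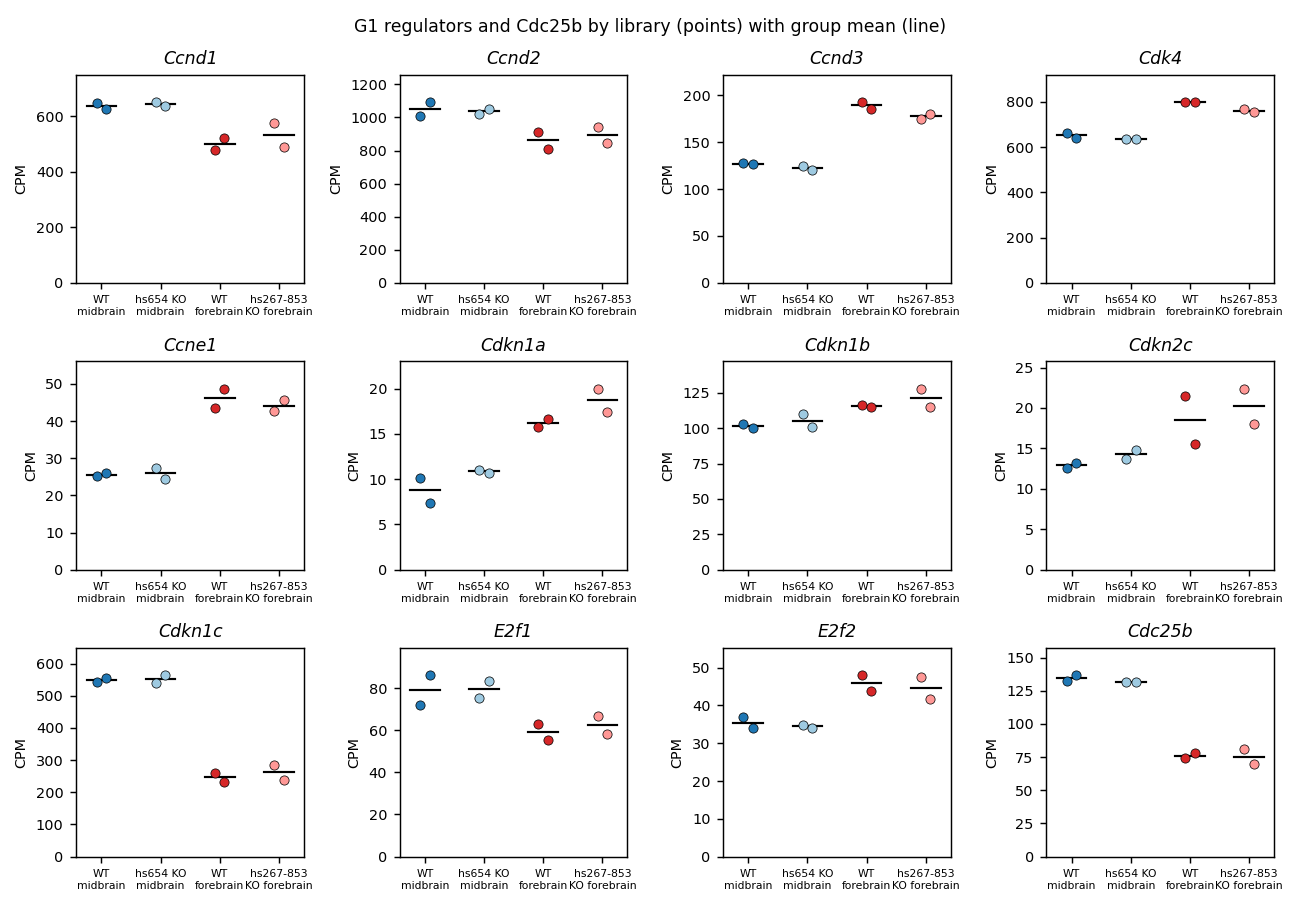
CPM of 10 regulators of G1 and S phase entry from the set and, beside them, of Cdkn1c and Cdc25b from the longer lists, with 1 point per pool and a line at the mean of each group, on linear axes that start at 0. Ccnd1, Ccnd2, Cdkn1c, E2f1 and Cdc25b are lower in the 4 forebrain pools than in the 4 midbrain pools, and Ccnd3, Cdk4, Ccne1, Cdkn1a, Cdkn1b, Cdkn2c and E2f2 are higher.

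S phase genes moved in 1 direction. All 13 were higher in both wild-type forebrain pools than in both wild-type midbrain pools, a pattern that 33.2% of all tested genes had. Of the 13 genes, 12 rose in wild-type forebrain, by 1.16-fold to 1.48-fold, and the median log2 difference was 0.36. The MCM subunits Mcm2, Mcm3, Mcm4, Mcm5, Mcm6 and Mcm7, which form the replicative helicase, all rose. Mcm3 was at 213 and 220 CPM in wild-type midbrain, 212 and 221 in knockout midbrain, 302 and 311 in wild-type forebrain and 295 and 293 in knockout forebrain (0.50 ± 0.05 in the wild type, SE, edgeR adjusted p = 1.2e-05). All 4 midbrain pools lay between 212 and 221 CPM and all 4 forebrain pools between 293 and 311 CPM.

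Mcm5 was at 215 and 220 CPM in wild-type midbrain, 208 and 209 in knockout midbrain, 287 and 303 in wild-type forebrain and 288 and 263 in knockout forebrain (0.44 ± 0.06 in the wild type, SE, edgeR adjusted p = 0.00012). Rrm2, the subunit of ribonucleotide reductase that is made in S phase, rose from 263 and 279 CPM to 354 and 374 CPM in the wild type (0.43 ± 0.06, SE, edgeR adjusted p = 0.00013). Its partner Rrm1, the large subunit, was the S phase gene that did not pass the test, at 427 and 411 CPM in midbrain and 438 and 464 CPM in forebrain (0.11 ± 0.05, SE, edgeR adjusted p = 0.16). Of the genes that load the helicase at origins, Cdt1 rose 1.48-fold and Cdc6 1.25-fold, and Gmnn, which encodes the Cdt1 inhibitor geminin, rose 1.35-fold. Tyms, which makes thymidylate, rose 1.38-fold. Cdc6 lost its call without either midbrain pool (adjusted p = 0.070 and 0.061) or the first forebrain pool (adjusted p = 0.089), and Gmnn and Mcm6 lost theirs without the second forebrain pool (adjusted p = 0.064 and 0.059). Pcna, the sliding clamp of DNA polymerase, was at 388 and 359 CPM in wild-type midbrain, 337 and 328 in knockout midbrain, 433 and 436 in wild-type forebrain and 465 and 429 in knockout forebrain. Its wild-type rise was 0.22 ± 0.06 (SE, edgeR adjusted p = 0.012), and that call was lost without the second midbrain pool (adjusted p = 0.10) or either forebrain pool (adjusted p = 0.055 and 0.067).

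Of 23 genes of G2 and mitosis, 18 rose in wild-type forebrain, by 1.14-fold to 1.46-fold, none fell and 5 did not pass the test, with a median log2 difference of 0.30. Plk1 and Aurkb, both mitotic kinases, were among those with the smallest p. Bub1, Ttk and Cdk1, also mitotic kinases, were among those of the 18 with the largest (edgeR adjusted p = 0.017, 0.018 and 0.018). Plk1 was at 100.8 and 98.0 CPM in wild-type midbrain, 102 and 96.1 in knockout midbrain, 138 and 151 in wild-type forebrain and 152 and 136 in knockout forebrain, which puts all forebrain pools above all midbrain pools (0.54 ± 0.07 in the wild type, SE, edgeR adjusted p = 0.00013). Aurkb, the kinase of the chromosomal passenger complex, rose from 64.9 and 70.8 to 93.9 and 96.5 CPM (0.49 ± 0.07, SE, edgeR adjusted p = 0.00023), and Birc5, which encodes survivin of the same complex, rose 1.38-fold. Aurka, which acts at centrosomes and spindle poles, rose 1.41-fold.

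Mybl2 (B-Myb), which activates late cell cycle genes, was at 54.2 and 57.8 CPM in wild-type midbrain, 54.9 and 56.9 in knockout midbrain, 79.1 and 79.7 in wild-type forebrain and 80.5 and 81.9 in knockout forebrain (0.51 ± 0.07 in the wild type, SE, edgeR adjusted p = 0.00018). The regions did not overlap in either genotype. Foxm1, the other activator of these genes, rose 1.25-fold. Ccna2, Ccnb1 and Ccnb2, the A- and B-type cyclins, rose 1.22-fold, 1.17-fold and 1.23-fold, and their kinase Cdk1 rose 1.16-fold. The call of Ccnb1 was lost without either midbrain pool (adjusted p = 0.069 and 0.079) or the second forebrain pool (adjusted p = 0.13), that of Ccnb2 without the first forebrain pool (adjusted p = 0.053), and that of Cdk1 without the first midbrain pool (adjusted p = 0.14) or either forebrain pool (adjusted p = 0.079 and 0.074). Cdc20, the activator of the anaphase-promoting complex, rose 1.33-fold.

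The 5 genes that did not pass were Mki67, Top2a, Cenpe, Cenpf and Bub3. Mki67, the source of the Ki-67 antigen used to mark dividing cells, was at 812 and 835 CPM in wild-type midbrain, 788 and 765 in knockout midbrain, 873 and 946 in wild-type forebrain and 871 and 875 in knockout forebrain. The forebrain pools lay above the midbrain pools, by 0.14 ± 0.05 (SE, edgeR adjusted p = 0.067) in the wild type. Top2a, the topoisomerase that untangles chromosomes, was at 952 and 925 CPM in wild-type midbrain and 925 and 1022 CPM in wild-type forebrain, and the pools overlapped (0.05 ± 0.06, SE, edgeR adjusted p = 0.53). Cenpf, a kinetochore protein, was at 407 and 417 CPM in midbrain and 359 and 409 CPM in forebrain (-0.10 ± 0.06, SE, edgeR adjusted p = 0.26). Cenpe, a kinetochore motor, differed by 0.17 ± 0.07 (SE, edgeR adjusted p = 0.076), and Bub3, a spindle checkpoint protein, by 0.06 ± 0.07 (SE, edgeR adjusted p = 0.51).

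Within groups, the pools of wild-type forebrain were not alike for these genes, and neither were those of knockout forebrain. In the second wild-type forebrain pool, 36 of the 51 genes were higher than in the first. Among them were 11 of 13 S phase and 19 of 23 G2/M genes, while over all tested genes 7342 of 15383 were higher in that second pool. Knockout forebrain was split the other way, with 33 of the 51 genes higher in the first pool and 18 in the second. Over all tested genes, 8073 of 15383 were higher in that first pool. The second pool was the higher one for 26 of 51 genes in wild-type midbrain and for 22 in knockout midbrain. Each fit without 1 wild-type pool, which leaves 1 pool in that group, lost calls of higher genes. The most were lost without the second wild-type forebrain pool. Without it, the median log2 difference of the G2/M genes was 0.25 in place of 0.30. Of the 40 calls in the wild type, 24 held without any 1 library, and 16 were lost without at least 1 of them (Bub1, Ccnb1, Ccnb2, Ccnd2, Cdc6, Cdk1, Cdkn2c, E2f1, E2f2, Gmnn, Kif11, Kif20a, Mad2l1, Mcm6, Pcna and Ttk).

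A pair of groups that shares no library with the wild-type comparison, although all 8 libraries share 1 estimate of the spread, gave the same direction for each of the 40 genes called in the wild type. Between hs267-853 knockout forebrain and hs654 knockout midbrain, where deletion and region differ together, 43 of 51 genes were higher in forebrain and 3 were lower, beside 14.6% and 14.8% of all tested genes. The 3 lower genes were again Ccnd1 (-0.27 ± 0.07, SE, edgeR adjusted p = 0.012), Ccnd2 (-0.21 ± 0.07, SE, edgeR adjusted p = 0.039) and E2f1 (-0.34 ± 0.11, SE, edgeR adjusted p = 0.028). All 40 were called in that direction here too, which is 100% of the wild-type calls and 87.0% of the 46 calls in the knockouts. The corresponding share over all tested genes was not computed, so this agreement is not shown to be particular to cell cycle genes. The median log2 differences were 0.37 in G1, 0.43 in S phase and 0.35 in G2/M, against 0.017 over all tested genes.

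The genes called in both comparisons were, in G1, Ccnd3, Ccne1, Cdk2, Cdk4, Cdkn1a, Cdkn2c and E2f2 as higher and Ccnd1, Ccnd2 and E2f1 as lower. In S phase they were Cdc6, Cdt1, Gmnn, Mcm2 to Mcm7, Pcna, Rrm2 and Tyms, all higher. In G2/M they were Aurka, Aurkb, Birc5, Bub1, Bub1b, Ccna2, Ccnb1, Ccnb2, Cdc20, Cdk1, Cenpa, Foxm1, Kif11, Kif20a, Mad2l1, Mybl2, Plk1 and Ttk, also all higher. Ccne2, Cdkn1b, Cenpe, E2f7, Mki67 and Rrm1 were called, as higher, in the knockout comparison and missed the threshold in the wild type. The knockout calls of Cdkn1b and Mki67 were lost with RLE scaling (adjusted p = 0.068 and 0.055), a mean of at least 50 counts (0.089 and 0.088), DESeq2 (0.13 and 0.051) and only the 4 knockout libraries (0.11 and 0.051), and that of Cdkn1b with limma-voom too (0.054). The knockout call of Cdkn2c was lost with a mean of at least 50 counts (edgeR adjusted p = 0.056), DESeq2 (0.081) and limma-voom (0.055). In the wild type, E2f7, Cenpe and Mki67 passed with no filter on low counts (0.027, 0.034 and 0.042) and without either hs267-853 knockout pool (E2f7 0.037 both times, Cenpe 0.039 both times, Mki67 0.043 both times). Mki67 also passed there with limma-voom (0.036) and without the first wild-type forebrain pool (0.045), and E2f7 without the second wild-type midbrain pool (0.039). Bub3, Cdk6, Cdkn2d, Cenpf and Top2a were called in neither. No gene of the set passed a test of the difference between the regional contrasts of the genotypes, which is the same test as that between the knockout effects below. Of the 46 calls between the knockout regions, 35 held without any 1 library, and those of Bub1, Ccnb1, Ccnd1, Ccnd2, Cdkn1b, Cdkn2c, E2f1, E2f2, E2f7, Mki67 and Ttk did not. Without the second hs654 knockout midbrain pool or the second hs267-853 knockout forebrain pool no gene was called lower in place of 3. Without the first hs654 knockout midbrain pool E2f1 was called lower and Ccnd1 and Ccnd2 were not.

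**Figure D3:**
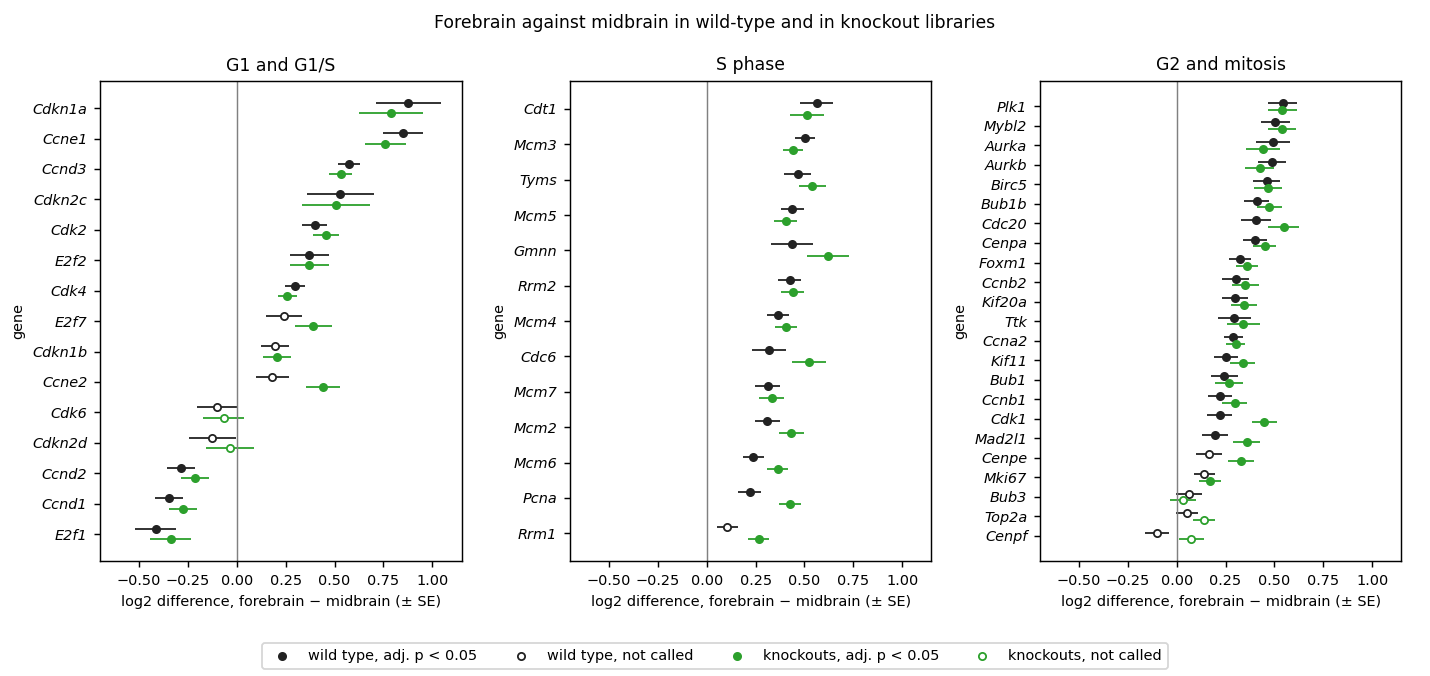
Log2 difference between forebrain and midbrain for each of the 51 genes, with bars of 1 SE, in wild-type pools (black) and knockout pools (green). Filled points passed the threshold and open points did not. Of the genes of S phase and of G2 and mitosis, the filled points lie right of 0 in both comparisons, and Ccnd1, Ccnd2 and E2f1 lie left of it.

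Further cell cycle genes were also higher in forebrain more often than lower. Their lists were drawn up by phase from general knowledge, with earlier results of these data known. Over all tested genes, 14.3% were called higher and 15.3% lower in wild-type forebrain. Of 26 tested genes of the longer G1 list, 10 were higher and 6 lower in wild-type forebrain (median log2 difference 0.16). Cdkn1c (p57), the Cdk inhibitor of cells that leave the cycle, fell by 1.16 on the log2 scale (SE 0.08, edgeR adjusted p = 2.7e-07), from 545 and 554 CPM in midbrain to 261 and 232 CPM in forebrain. Tfdp2, a partner subunit of E2F factors, fell by 1.08 and Btg2, an antiproliferative gene of neurogenic divisions, fell by 0.94. Among the 10 higher genes, Mycn, a growth-promoting transcription factor, rose by 0.91 (SE 0.07, edgeR adjusted p = 7.8e-07), Cks1b by 0.59 and Skp2 by 0.50, and these last genes encode partners in the degradation of p27.

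In the longer S phase list, 32 of 50 genes were higher and none was lower (median 0.28), led by Dut (dUTPase, 0.62), Chaf1a (a subunit of the chromatin assembly factor CAF-1, 0.54) and Fen1 (the flap endonuclease of Okazaki fragments, 0.45). In the longer G2/M list of 70 genes, 32 were higher and 1 was lower (median 0.22). Ube2c (the ubiquitin-conjugating enzyme of the anaphase-promoting complex) rose by 0.54, Ccnf (cyclin F) by 0.53 and Ncaph (a condensin subunit) by 0.44. The exception was Cdc25b, a phosphatase that activates Cdk1, at 133 and 137 CPM in wild-type midbrain and 74.3 and 77.9 CPM in wild-type forebrain, which fell by 0.82 (SE 0.08, edgeR adjusted p = 3.8e-06). Of the 81 genes of these lists called in the wild type, 76 were called in the same direction between the knockout regions (93.8% of the wild-type calls and 74.5% of the 102 knockout calls). Here too the share over all tested genes was not computed.

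Neuronal markers moved the opposite way. All 13 neuron markers were lower in wild-type forebrain (median log2 difference -1.47), and their summed level was 4077 to 4234 CPM in wild-type midbrain, 4464 to 4604 in knockout midbrain, 1765 to 2047 in wild-type forebrain and 1613 to 2304 in knockout forebrain. Of 10 markers of newborn neurons, 8 were lower and none higher. Btg2 and Gadd45g stand both on that list and on the longer G1 list, and both were lower. Neural progenitor markers showed no single direction, with 5 higher (Sox1, Sox2, Sox3, Hes1 and Cdh2), 5 lower (Nes, Hes5, Fabp7, Msi1 and Prom1) and 2 not called of 12. Their summed level was 4984 to 4994 CPM in wild-type midbrain and 4354 to 4446 in wild-type forebrain. In the knockouts it was 4996 to 5090 CPM in midbrain and 4369 to 4906 in forebrain. The summed level of the S phase genes was 2738 to 2755 CPM in wild-type midbrain, 2555 to 2567 in knockout midbrain, 3337 to 3507 in wild-type forebrain and 3291 to 3456 in knockout forebrain.

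The G2/M genes summed to 4866 to 4877, 4498 to 4556, 5400 to 5795 and 5397 to 5519 CPM in the same order. The G1 genes summed to 2954 to 3015, 2944 to 2947, 2903 to 2993 and 2862 to 3080 CPM, so their regions overlapped. On the longer lists, the G1 sum was lower in forebrain, at 2575 to 2581 CPM in wild-type midbrain and 2266 to 2296 in wild-type forebrain. The longer S phase and G2/M sums were higher in forebrain. Of the lists for other cells, none of 11 erythroid markers was called in the wild type, 4 of 11 mesenchyme markers were higher and 1 lower, 1 of 7 endothelial markers was higher and 4 of 7 macrophage markers were lower, and none of these markers was at 0 in any library. The part of cell composition in the regional difference was not tested. In bulk tissue, fewer cells of a type and less RNA per cell cannot be told apart.

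**Figure D4:**
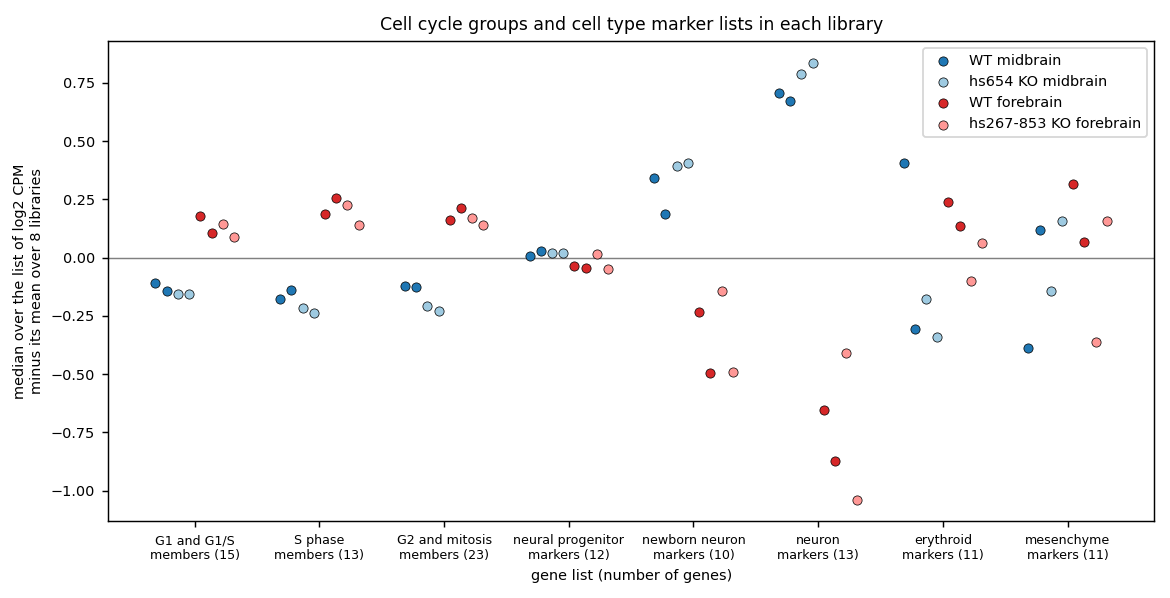
For each list of genes (number in brackets), the median over its genes of log2 CPM minus the gene's mean over the 8 libraries, with 1 point per library coloured by group. The 3 cell cycle groups lie above 0 in all forebrain libraries and below 0 in all midbrain libraries, the neuron and newborn neuron markers lie the other way round, and neural progenitor markers stay near 0.

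No cell cycle gene passed the threshold in either knockout comparison. In hs654 knockout against wild-type midbrain, edgeR called 0 of 51 genes and 0% of all tested genes at an adjusted p under 0.05, and DESeq2 and limma-voom also called 0 of 51. The smallest adjusted p of the 51 was 0.992. At an unadjusted p under 0.05, 12 of the 51 genes passed and all 12 were lower in the knockout (23.5%, against 2.13% of all tested genes). DESeq2 gave 7 such genes and limma-voom 11. Of the 51 genes, 43 had a lower mean in the knockout (84.3%, against 50.3% of all tested genes), and for 28 both knockout pools were below both wild-type pools (54.9%, against 18.8% of all tested genes).

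By phase, the median log2 difference in the hs654 knockout was -0.02 in G1, -0.09 in S phase and -0.09 in G2/M, against -0.00092 over all tested genes, with 9 of 15, 12 of 13 and 22 of 23 genes lower. The smallest p was that of Cdk1, at 94.4 and 96.4 CPM in the knockout pools against 111 and 115 CPM in wild-type midbrain, a difference of -0.24 ± 0.06 (SE, edgeR unadjusted p = 0.0026, adjusted p = 0.992). Ccne2 was also lower in the knockout pools, with 46.2 and 43.3 CPM against 57.3 and 54.1 CPM (-0.31 ± 0.09, SE, edgeR unadjusted p = 0.0037, adjusted p = 0.992). Rrm1 was at 369 and 375 CPM in the knockout pools against 427 and 411 CPM (-0.17 ± 0.05, SE, edgeR unadjusted p = 0.0061, adjusted p = 0.992). For each of these genes both knockout pools were below both wild-type pools. The other 9 with an unadjusted p under 0.05 were Cenpe, Mad2l1, Mcm6, Pcna, Ttk, Kif20a, Cenpf, Top2a and Kif11. D-type cyclins and Cdk4 differed by -0.05 to 0.02, and Cdkn1a, whose knockout pools were both above the wild-type pools, differed by 0.30 ± 0.18 (SE, edgeR adjusted p = 0.992).

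When each library was left out in turn, 39 to 43 of the 51 genes were lower in the knockout, 4 to 13 had an unadjusted p under 0.05, and the lowest count came without the second hs654 knockout pool. Of 146 tested genes on the longer lists, 118 had a lower mean in the knockout (80.8%) and 76 had both knockout pools below both wild-type pools (52.1%). Neuron markers lay the other way, with all 13 higher in both knockout pools than in both wild-type pools, against 17.9% of all tested genes. Their median log2 difference was 0.12, and none passed the test. All 11 erythroid markers had a lower mean in the knockout (median -0.46), against 50.3% of all tested genes. The first wild-type midbrain pool had an erythroid sum of 6794 CPM, above the 3619 CPM of the second. All 11 mesenchyme markers had a higher mean, against 7641 of 15383 tested genes, though none of either list passed the test. Without that first pool, 39 of the 51 genes were lower in the knockout and 7 had an unadjusted p under 0.05, 6 of them lower. The part of these cells in these differences was not tested.

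In hs267-853 knockout against wild-type forebrain, edgeR called 0 of 51 genes, beside 0.013% of all tested genes, and DESeq2 and limma-voom called 0 as well. No gene of the set had an unadjusted p under 0.05 by edgeR, where 4.78% of all tested genes did. By direction 31 were lower (60.8%, against 47.4% of all tested genes) and 20 higher. Medians were 0.03 in G1, -0.03 in S phase and -0.04 in G2/M on the log2 scale, against 0.0078 over all tested genes. For 9 genes both knockout pools were below both wild-type pools (17.6%, against 13.9% of all tested genes), and for 3 both were above (5.88%, against 17.2%). The direction of this split turned on single pools, with 42 of 51 lower without the first knockout pool and 22 of 51 lower without the second wild-type pool. The smallest p belonged to Ttk, a spindle checkpoint kinase, at 63.1 and 69.5 CPM in knockout pools against 71.1 and 77.3 CPM (-0.16 ± 0.08, SE, edgeR adjusted p = 0.98). Kif20a, a kinesin of cytokinesis, followed at 183 and 195 against 197 and 211 CPM (-0.11 ± 0.07, SE), and then Mcm5, at 288 and 263 against 287 and 303 CPM (-0.10 ± 0.06, SE), both with an edgeR adjusted p of 0.98. All 11 mesenchyme markers had a lower mean in this knockout (median -0.33), as did 9 of 11 erythroid markers (median -0.19). Of 13 neuron markers, 11 had a higher mean (median 0.04), against 8084 of 15383 tested genes. None of these markers passed the test, and the part of these cells was not tested.

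The knockout effects in midbrain and forebrain were also set against each other in 1 test. No gene of the 51 passed it, beside 0.0065% of all tested genes, by edgeR, DESeq2 or limma-voom. Cdk1 (-0.23 ± 0.09, SE, edgeR unadjusted p = 0.024, adjusted p = 0.996) and Pcna (-0.21 ± 0.08, SE, edgeR unadjusted p = 0.026, adjusted p = 0.996) were the 2 genes with an unadjusted p under 0.05, which 4.02% of all tested genes had, and Rrm1 came next (-0.16 ± 0.07, SE, edgeR unadjusted p = 0.053). A smaller effect of the hs267-853 than of the hs654 deletion on cell cycle genes is therefore not shown by this test. DESeq2 gave 1 gene with an unadjusted p under 0.05 and limma-voom 3.

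**Figure D5:**
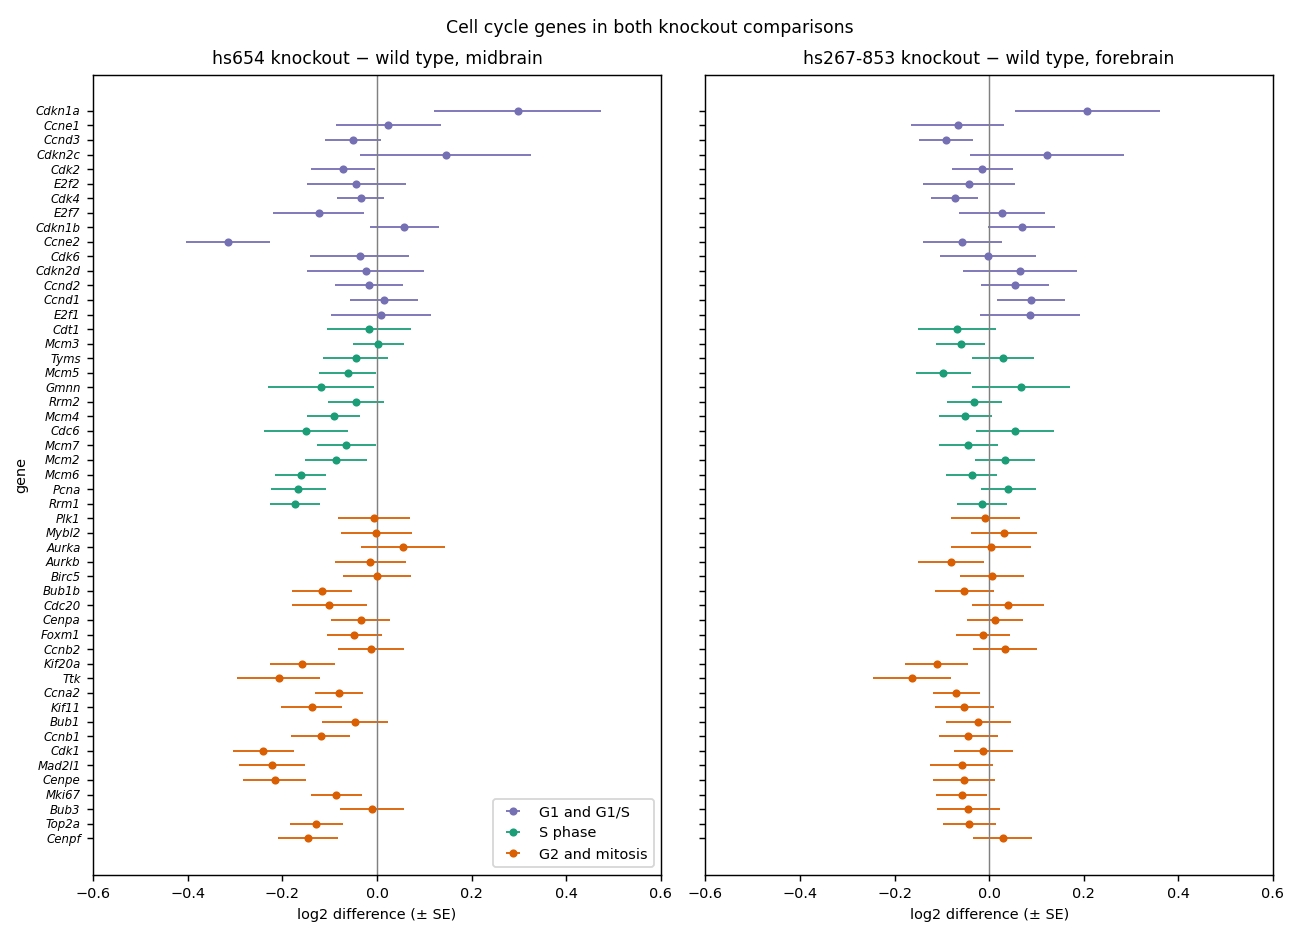
Log2 difference between knockout and wild type for each of the 51 genes, with bars of 1 SE, in midbrain (left, hs654 knockout) and forebrain (right, hs267-853 knockout), coloured by phase group and in the same gene order. No point passed the threshold. In midbrain 43 of 51 points lie left of 0, and in forebrain 31 of 51 do.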

How the data were processed

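Of 29 samples, 8 RNA-seq libraries were used. The 21 samples of enhancer contacts are not analysed here. The values are raw counts per gene, deposited by the authors. STAR, HTSeq, DESeq2 and build mm10 are named in the submitters' processing notes. Annotation and strand setting are not given in the sources used here. Genes held 40.7% to 44.1% of counts in genes, no feature and ambiguous positions. Of the same counts, 55.4% to 58.9% were in no feature and 0.43% to 0.49% in ambiguous positions. Reads not aligned were 49.2% to 49.4% of all counts apart from those of non-unique alignments. The cause was not tested. The 5 rows that name no gene were left out.

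Groups came from the labels. Genes were filtered with filterByExpr, scaled by TMM and tested, two-sided, with edgeR 4.0.16 (quasi-likelihood, R 4.3.3) on all 8 libraries with a mean per group. SE is the log2 difference over the root of F, and log2 CPM uses a prior count of 2. The model was tested on simulated data. Alternatives included DESeq2 1.42.0 and limma 3.58.1.

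The members and lists were chosen with earlier results of these data known. Named genes are, per phase group and direction, the 3 called genes with the smallest p between wild-type regions, in the knockouts the 3 with the smallest p, and D-type cyclins, Cdk inhibitors, Mki67, Top2a and Pcna. Other genes were named after values were seen.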

Additional observations from a re-analysis of the deposited data

How the results depend on the processing

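Over 8 other scalings, filters, tools and designs, the number of cell cycle genes called higher in forebrain was 35 to 40 in the wild type and 40 to 43 in the knockouts, 3 were called lower in each, and 0 were called in either knockout comparison. Leaving out 1 library gave 27 to 41 higher and 1 to 3 lower genes in the wild type, and 35 to 42 higher and 0 to 3 lower in the knockouts, with the lone pool of a group assumed to vary like the others. The knockout comparisons and the difference between them stayed at 0 without each library. Replicate numbers pair nothing in the labels, and the correlation of same-numbered deviations between groups was -0.0255 to 0.0670. With the replicate block, 37 genes were higher and 3 lower in the wild type, and 43 and 3 in the knockouts. In the wild type, Cdkn1b gained its call with that block (edgeR adjusted p = 0.046) and Mad2l1 lost its call (adjusted p = 0.051). Mad2l1 also lost that call with upper-quartile scaling (edgeR adjusted p = 0.055), no filter on low counts (0.0503) and a mean of at least 50 counts (0.059). With DESeq2 its adjusted p was 0.12. Over 1981 values of single named genes under the alternatives, 90 lost the threshold, 17 gained it and 5 changed sign, all 5 of genes that were not called: Top2a in the wild type (-0.018 to 0.12 when 1 library was left out), and between the knockouts Cdk6 (-0.17 to 0.033), Cdkn2d (-0.21 to 0.12) and Bub3 (-0.050 to 0.11, and -0.0055 with a mean of at least 50 counts). These signs turned without the second wild-type forebrain pool for Top2a, the first hs267-853 knockout forebrain pool for Cdk6 and Bub3, and the second for Cdkn2d. The cause was not tested. With 2 pools per group, small differences in low genes such as Cdkn1a and Cdkn2c have the widest errors.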
